A study of Mus musculus with 16 samples.

Results

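The 10 cathepsins Ctsa, Ctsb, Ctsc, Ctsd, Ctsh, Ctsk, Ctsl, Ctso, Ctss and Ctsz were taken from the count table by gene symbol, out of 18346 genes listed, and all 10 were among the 13373 genes expressed highly enough to be tested. Bulk RNA sequencing had been done on whole dissected mouse hearts in 4 groups of 4 animals: wild-type (WT) young, WT aged, knockout (KO) young and KO aged. Young animals were 8 weeks old and aged animals 25 months old, on a normal diet and without further treatment. WT animals were C57BL/6J. KO animals lacked Armh4, a single-pass membrane protein gene, throughout the body; neither the deleted part of the gene nor the strain of the KO line is given in the sources used here. The hearts of a group were stated to be independent animals, and a heart is called by its group and animal number.

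Cathepsins are the proteases of the lysosome, the acidic compartment in which cells degrade proteins delivered by endocytosis, phagocytosis and autophagy. Ctsb, Ctsc, Ctsh, Ctsk, Ctsl, Ctso, Ctss and Ctsz encode cysteine proteases, Ctsd an aspartic protease and Ctsa a serine carboxypeptidase that also protects lysosomal glycosidases. Most are made as inactive precursors in nearly every cell type, whereas Ctss is known mainly from macrophages and other antigen-presenting cells and Ctsk from osteoclasts and fibroblasts. In the heart, loss of cathepsin L is known to cause cardiomyopathy in mice, and lysosomal proteolysis clears worn proteins and mitochondria from cardiomyocytes that rarely divide.

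Promoter sequences are shown for 4 genes: Ctss, Ctso and Ctsl, which differed between aged genotypes, and Ctsd, the most abundant. The RefSeq promoter table (build GRCm38.p6, not the authors' build) matched 8 of the 10 genes, all but Ctsb and Ctsh, and each window runs from 250 bases before to 50 bases after a start site. Capitals mark GAAA followed by any 2 bases and GAAA again, a repeat of the kind that interferon regulatory factors are known to bind, or CACGTG, the E-box core bound by lysosomal gene regulators such as TFEB, with its flanks where the longer TCACGTGA is present. Each sequence reads 5′ to 3′ in the direction of the gene. The windows are chr3:95526536-95526835 on the plus strand for Ctss, chr3:81932351-81932650 on the plus strand for Ctso, chr13:64370471-64370770 on the minus strand for Ctsl and chr7:142387778-142388077 on the minus strand for Ctsd.
Ctss: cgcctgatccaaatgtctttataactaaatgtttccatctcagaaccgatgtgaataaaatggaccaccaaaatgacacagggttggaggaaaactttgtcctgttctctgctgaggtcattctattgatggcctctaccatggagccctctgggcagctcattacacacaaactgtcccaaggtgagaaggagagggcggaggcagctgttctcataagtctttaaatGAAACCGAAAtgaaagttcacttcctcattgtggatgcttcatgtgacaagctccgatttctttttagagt
Ctso: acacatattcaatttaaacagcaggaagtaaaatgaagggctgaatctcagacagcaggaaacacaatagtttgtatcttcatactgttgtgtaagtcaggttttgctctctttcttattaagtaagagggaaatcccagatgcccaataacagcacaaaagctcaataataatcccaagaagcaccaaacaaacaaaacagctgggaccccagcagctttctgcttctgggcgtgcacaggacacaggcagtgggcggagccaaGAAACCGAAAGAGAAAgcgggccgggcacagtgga
Ctsl: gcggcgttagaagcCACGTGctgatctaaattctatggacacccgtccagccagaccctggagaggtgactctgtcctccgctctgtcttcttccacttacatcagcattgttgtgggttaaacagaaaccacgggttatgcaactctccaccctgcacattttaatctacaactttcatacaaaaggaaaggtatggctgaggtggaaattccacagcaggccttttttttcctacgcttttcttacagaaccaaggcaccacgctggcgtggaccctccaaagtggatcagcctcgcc
Ctsd: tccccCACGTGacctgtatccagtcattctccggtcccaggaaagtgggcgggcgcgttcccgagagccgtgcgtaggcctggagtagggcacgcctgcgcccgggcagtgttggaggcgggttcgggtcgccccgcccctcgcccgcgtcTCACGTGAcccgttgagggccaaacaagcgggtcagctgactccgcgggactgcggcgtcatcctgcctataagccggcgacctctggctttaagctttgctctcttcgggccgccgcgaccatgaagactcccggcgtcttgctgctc

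Both strands were searched. The GAAA repeat occurred in the windows of Ctso and Ctss among the 8 genes, and in 3.44% of all 32851 promoter windows. Both carried the same 10 bases, GAAACCGAAA, first base at -21 from the start site in Ctss and at 16 after it in Ctso, where a second overlapping match followed. CACGTG occurred in Ctsa, Ctsd and Ctsl and in 7.15% of all windows. The longer TCACGTGA, which contains CACGTG, occurred in Ctsa and Ctsd and in 0.974% of all windows. In all, 11 motifs were searched and these 3 were chosen after their matches had been seen, so the matches are a description of the letters and not evidence of binding. A 10-base extension of TCACGTGA was in no cathepsin window and in 0.326% of all windows, and TCACGTG, contained in TCACGTGA, was in Ctsa and Ctsd and in 3.77%. TTCNNNGAA, a STAT-type motif, was in Ctsc (8.30% of all windows). Of 2 ETS-type motifs, AGGAAGT was in Ctsc, Ctso and Ctss (9.35%) and GAGGAA was in Ctsc, Ctsk and Ctss (28.3%). CCAAT was in Ctso and Ctsz (37.4%), the GC box GGGCGG was in Ctsc, Ctsd, Ctso, Ctss and Ctsz (35.7%), and TATAAA was in Ctss (13.6%). By gene order in RefSeq, Ctsk and Ctss are neighbouring coding genes.

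Total counts ranged from 11456503 to 13298660 per heart. Levels within a gene are given as CPM, counts scaled to library size by TMM. Armh4 averaged 15.5 ± 2.49 CPM in the young and 18.5 ± 1.94 CPM in the aged WT group, against 0.374 ± 0.198 and 1.14 ± 0.368 CPM in the young and aged KO groups (SD, n = 4). Cardiomyocyte markers dominated every library, with a summed level of 8 genes between 70333 and 97925 CPM, the labelled tissue being heart. One heart, WT_Aged_1, stood apart from the other aged WT hearts in macrophage markers, and tests in which leaving it out made or ended a cathepsin's call, or moved a log2 difference above 0.1 by over 1.5 times, are given both ways.

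Per transcript length, the 10 genes covered a range of levels, and the order of the first 4 by group mean was the same in all groups. In the authors' deposited FPKM, the order in young WT hearts was Ctsd at 692 ± 13.9, Ctsb at 319 ± 24.6, Ctsl at 138 ± 16.1 and Ctsa at 54.3 ± 4.01 (SD, n = 4), followed by Ctsh, Ctsz, Ctsc, Ctss, Ctso and Ctsk at 28.8, 22.4, 15.2, 14.3, 7.55 and 5.12. The ranges of neighbouring genes did not overlap among the first 4 genes. They overlapped for Ctsh with Ctsz, Ctsc with Ctss, and Ctso with Ctsk. Ctsd, Ctsb and Ctsl together held between 83.1% and 89.4% of the summed FPKM of the 10 genes in every heart.

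In the change from young to aged WT hearts, Ctss moved by more places than any other member. It ranked 7 or 8 of the 10 genes in each young heart of either genotype, 4 to 6 in aged WT hearts and 6 or 7 in aged KO hearts. Its share of the summed FPKM was 0.873% to 1.21% in young WT, 1.08% to 1.43% in young KO, 2.30% to 4.94% in aged WT and 1.73% to 2.02% in aged KO hearts. The highest share, 4.94%, belonged to WT_Aged_1.

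**Figure D1:**
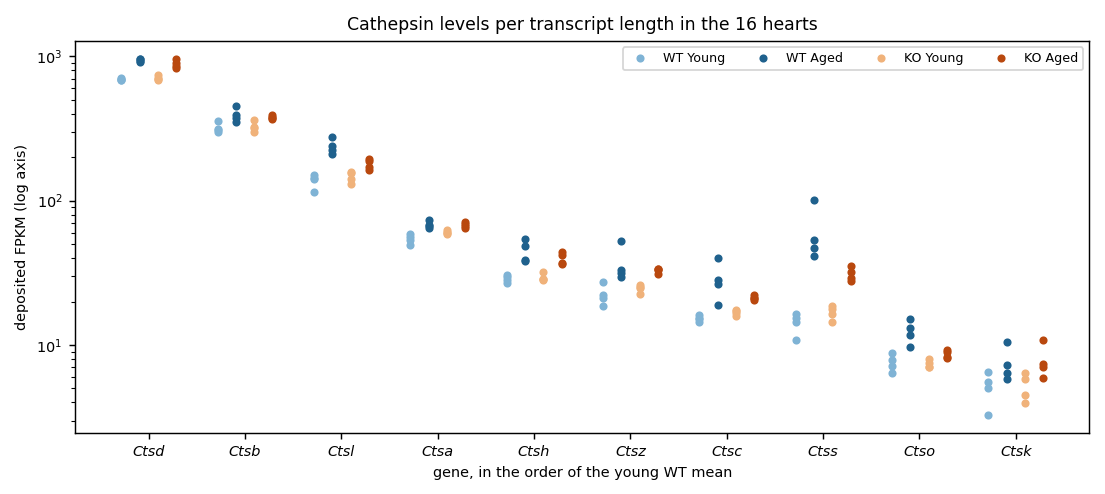
Deposited FPKM of the 10 cathepsins (log axis) in each of 16 hearts, 1 point per heart, coloured by group and ordered by the young WT mean. Ctsd, Ctsb, Ctsl and Ctsa keep the first 4 places by group mean in every group, and Ctss moves from rank 8 in young WT to rank 5 in aged WT means.

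Most of the family was higher in aged than in young WT hearts. Of the 10 cathepsins 8 passed as higher with age at an adjusted p under 0.05 (edgeR's quasi-likelihood test, Benjamini-Hochberg over 13373 genes; the same test is meant wherever an adjusted p is given), against 11.9% of all genes tested that were called higher and 21.9% called in either direction. None was lower. The median log2 change of the 10 was 0.61, against -0.01 over all genes. In 9 of the 10 every aged WT heart lay above every young WT heart, as was so for 12.0% of all genes. The log2 changes are drawn with their standard errors in the plot of changes by comparison.

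Ctss, which trims the class II invariant chain in antigen-presenting cells, changed most. Its CPM was 12.7, 16.1, 17.1 and 17.6 in the young WT group and 43.4, 49.7, 58.2 and 106 in the aged WT group. The groups did not overlap, and WT_Aged_1 was the highest. The log2 change was 2.02 ± 0.21 (SE; 4.05-fold; adjusted p 3.44e-06), and without WT_Aged_1 it was 1.68 ± 0.13 (adjusted p 1.33e-07).

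Ctsl, a broad endopeptidase of the lysosome, stood at 175, 204, 211 and 212 CPM in young and 296, 305, 330 and 378 CPM in aged WT hearts. Again no aged heart overlapped a young one. It rose by 0.71 ± 0.09 on the log2 scale (SE; adjusted p 1.86e-05). Ctsc, the dipeptidyl peptidase that activates granule serine proteases of immune cells, stood at 41.5, 42.01, 44.5 and 47.8 CPM in young and 54.0, 72.1, 78.6 and 109 CPM in aged WT hearts. The lowest aged value was WT_Aged_5 and the highest WT_Aged_1. Its log2 change was 0.83 ± 0.14 (SE; adjusted p 0.000248), and 0.65 ± 0.10 without WT_Aged_1 (adjusted p 0.000118).

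Ctso, a less studied cysteine protease, stood at 21.9, 23.7, 25.6 and 27.8 CPM in young and 29.7, 36.7, 40.3 and 49.0 CPM in aged WT hearts, the highest being WT_Aged_5. The 2 ranges lay close but apart. The log2 change was 0.65 ± 0.12 (SE; adjusted p 0.000547). Ctsz, a carboxypeptidase, stood at 23.6 to 31.6 CPM in young and 33.5, 37.4, 37.5 and 59.6 CPM in aged WT hearts. Its log2 change of 0.65 ± 0.14 (SE; adjusted p 0.00238) became 0.44 ± 0.09 without WT_Aged_1, the heart at 59.6 CPM (adjusted p 0.00193).

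Ctsh, an aminopeptidase, rose from 39.9 ± 2.0 to 59.3 ± 9.7 CPM (SD, n = 4; log2 change 0.57 ± 0.10, adjusted p 0.000547). Both of the genes with the highest FPKM moved less than Ctsh. Ctsd stood at 1116, 1134, 1209 and 1225 CPM in young and 1480, 1517, 1530 and 1530 CPM in aged WT hearts, a log2 change of 0.37 ± 0.07 (SE; adjusted p 0.000939). The aged WT values of Ctsd were tightly grouped, unlike those of Ctss or Ctsc. Ctsb, an endopeptidase and carboxypeptidase, stood at 613 to 636 CPM in young and 659 to 766 CPM in aged WT hearts. Those ranges were apart, yet its log2 change of 0.17 ± 0.07 (SE) did not pass the test (adjusted p 0.0936). Ctsb was called with DESeq2 (adjusted p 0.0314), with library totals as the scaling in edgeR (0.0167) and with limma on both FPKM scales (0.0169 and 0.0168), where its log2 change was 0.29.

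Ctsa rose by 0.22 ± 0.07 on the log2 scale (SE; adjusted p 0.019), with 111 to 119 CPM in young and 132 to 143 CPM in aged WT hearts. That call was lost without WT_Young_39 (adjusted p 0.0649) and with only the WT hearts in the fit, where the adjusted p rounded to 0.05. Ctsk, the collagen-degrading protease of osteoclasts, had the lowest FPKM. It stood at 4.65 to 8.69 CPM in young and 7.64 to 13.4 CPM in aged WT hearts, ranges that overlapped, and its log2 change of 0.48 ± 0.22 (SE) was not called (adjusted p 0.123), nor was the 0.30 ± 0.21 found without WT_Aged_1 (adjusted p 0.353). Counts of Ctsa and Ctsb were not whole numbers in any of the 16 libraries, which can arise where a read is divided between similar genes.

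**Figure D2:**
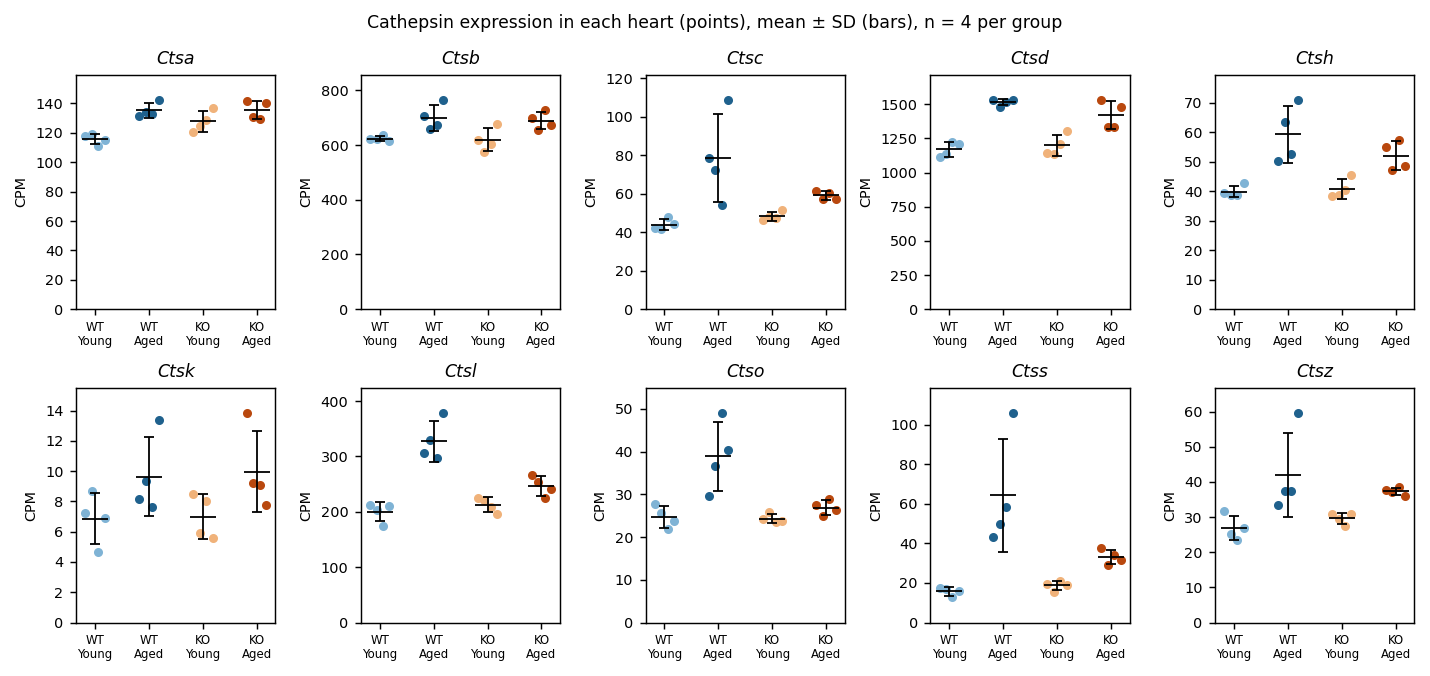
CPM of each cathepsin in every heart (points) with the group mean and SD (bars, n = 4), each panel on its own axis from 0. In the Ctss panel the aged WT hearts lie at 43.4 to 106 CPM, above the aged KO hearts at 28.99 to 37.5 CPM, and no young heart lies above 21.1 CPM.

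KO hearts showed fewer called changes with age. Of the 10 cathepsins 3 were higher in aged than in young KO hearts and none lower, against 5.03% of all genes called higher and 7.67% called in either direction. The median log2 change of the 10 was 0.27, against -0.01 over all genes. Aged and young KO hearts did not overlap for 6 of the 10, all higher with age, as was so for 8.71% of all genes. Called members were Ctss, Ctsd and Ctsh. The count is sensitive to single hearts: leaving out 1 heart at a time gave 0 to 3 called cathepsins, with 0 without KO_Aged_114 or KO_Young_31 and 1 without KO_Aged_125, KO_Young_27 or KO_Young_38.

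Ctss stood at 15.6, 19.1, 19.3 and 21.1 CPM in young KO and 28.99, 31.8, 33.9 and 37.5 CPM in aged KO hearts. The groups did not overlap. The log2 change was 0.81 ± 0.21 (SE; adjusted p 0.022). Ctsd stood at 1139, 1140, 1211 and 1307 CPM in young KO and 1332, 1335, 1479 and 1533 CPM in aged KO hearts, a log2 change of 0.24 ± 0.07 (SE; adjusted p 0.0411). Every aged value lay above every young one, by a narrow gap. Ctsh was at 38.2 to 45.6 CPM in young KO and 47.0 to 57.4 CPM in aged KO hearts, with a log2 change of 0.35 ± 0.10 (SE; adjusted p 0.0425).

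The other 7 had positive log2 changes in KO hearts that did not pass the test, from 0.09 for Ctsa to 0.51 for Ctsk. Ctsl stood at 196, 209, 222 and 225.1 CPM in young KO and 225.2, 241, 254 and 266 CPM in aged KO hearts, so that the highest young and lowest aged hearts were almost level. Its log2 change was 0.21 ± 0.09 (SE; adjusted p 0.168). Ctso stood at 23.5 to 25.8 CPM in young KO and 24.8 to 28.9 CPM in aged KO hearts, which overlapped (log2 change 0.15 ± 0.12, adjusted p 0.52). Ctsc, at 46.5 to 51.7 and 57.0 to 61.6 CPM, and Ctsz, at 27.4 to 30.9 and 35.9 to 38.5 CPM, did not overlap between the ages, but with adjusted p of 0.223 and 0.158 were not called. With only the 8 KO hearts in the fit both were called (adjusted p 0.0106 for Ctsc and 0.00884 for Ctsz) and Ctsd was not (0.0516). Ctsd was also lost with no filter on low counts (adjusted p 0.077) and with edgeR's newer quasi-likelihood method (0.0523).

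**Figure D3:**
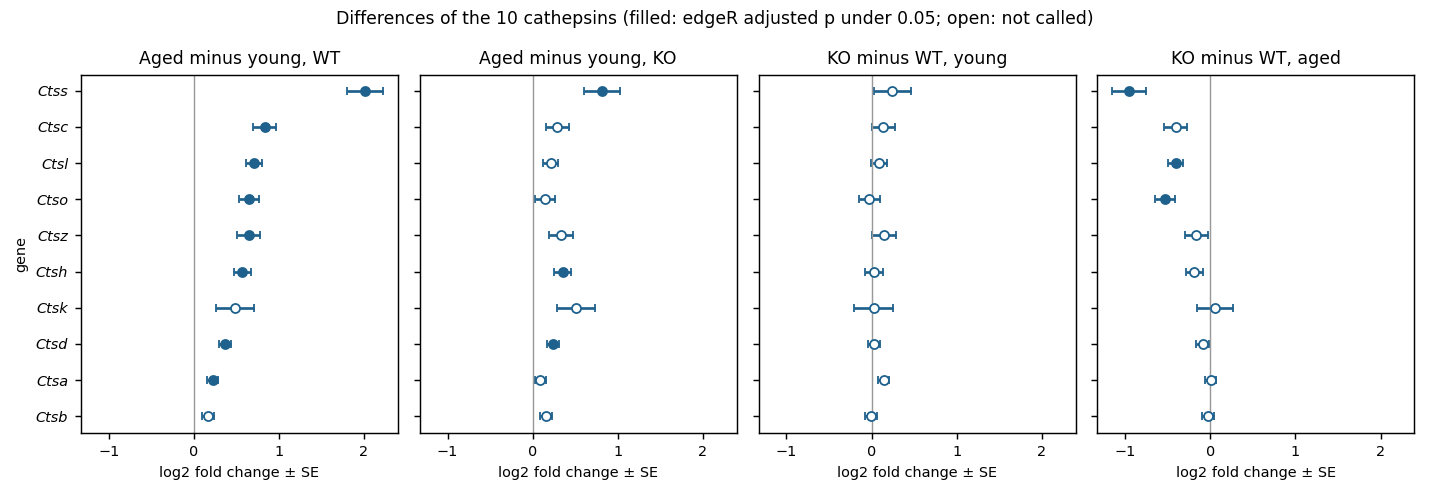
Log2 fold changes (points) with their SE (bars) for the 10 cathepsins in the 4 comparisons of groups, filled where the adjusted p was under 0.05. The WT ageing panel has 8 filled points to the right of 0, the KO ageing panel 3, the young genotype panel none and the aged genotype panel 3 to the left of 0.

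In young hearts no cathepsin was called between the genotypes. Of the 10, edgeR called 0 between young KO and young WT hearts, against 0.322% of all genes, and none by DESeq2. At an unadjusted p under 0.05 there was 1 of 10, against 11.2% of all genes. It was Ctsa, whose 4 KO hearts at 121 to 137 CPM lay above the 4 WT hearts at 111 to 119 CPM (log2 change 0.14 ± 0.07, adjusted p 0.429). It was the only member of the 10 whose young groups did not overlap, against 4.06% of all genes that were higher in this way. For Ctss the log2 difference was 0.24 ± 0.22 (SE), with an interval of 2 SE from -0.20 to 0.68. For Ctsl and Ctso the differences were 0.09 ± 0.09 and -0.02 ± 0.12 (SE), with intervals of -0.09 to 0.27 and -0.26 to 0.22. The interval for Ctss was the widest of the 3.

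In aged hearts 3 cathepsins, Ctss, Ctsl and Ctso, were lower in KO than in WT, and none was higher. The background was 0.942% of all genes called lower and 1.11% called in either direction. The same 3 genes were those whose aged KO and aged WT hearts did not overlap, against 2.94% of all genes that were lower in this way. The median log2 difference of the 10 was -0.18, against 0.00 over all genes. The aged WT hearts enter both this comparison and the WT ageing comparison, so the values of the 2 comparisons are not independent.

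Ctss stood at 28.99, 31.8, 33.9 and 37.5 CPM in aged KO against 43.4, 49.7, 58.2 and 106 CPM in aged WT hearts. All KO hearts lay below all WT hearts, and the spread was wider in WT. The log2 difference was -0.96 ± 0.20 (SE; adjusted p 0.0226). Without WT_Aged_1 it was -0.62 ± 0.12 (SE; adjusted p 0.0143).

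Ctsl stood at 225, 241, 254 and 266 CPM in aged KO against 296, 305, 330 and 378 CPM in aged WT hearts. The gap between the highest KO and the lowest WT heart was wider for Ctsl than the difference between neighbouring KO hearts. Its log2 difference was -0.41 ± 0.09 (SE; adjusted p 0.0285), and -0.34 ± 0.08 without WT_Aged_1 (adjusted p 0.0625). Ctso stood at 24.8, 26.3, 27.6 and 28.9 CPM in aged KO against 29.7, 36.7, 40.3 and 49.0 CPM in aged WT hearts. The closest hearts were KO_Aged_122 and WT_Aged_12. Its log2 difference was -0.53 ± 0.12 (SE; adjusted p 0.0285), and -0.53 ± 0.13 without WT_Aged_1 (adjusted p 0.0549).

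These 3 calls were not kept under every alternative. With only the 8 aged hearts in the fit, none was called (adjusted p 0.169 for Ctss, 0.165 for Ctsl and 0.189 for Ctso), and none was called on the FPKM scales with limma. Leaving out 1 heart at a time gave 0 to 3 called cathepsins, with 0 without KO_Aged_115, KO_Aged_122 or KO_Aged_125 and 1 without WT_Aged_1, and without WT_Aged_5 the 3 called were Ctss, Ctsl and Ctsc, with Ctso at an adjusted p of 0.0802. The log2 differences stayed negative in all of these fits, between -1.11 and -0.62 for Ctss, -0.45 and -0.34 for Ctsl and -0.65 and -0.40 for Ctso over the hearts left out. Of 12 sets of edgeR options that were run, 10 called all 3 genes. The sets are not independent support, since the options for library sizes and dispersion estimation left these adjusted p almost unchanged. Ctss stood at 0.0226 in the main fit and 0.0206 with the newer quasi-likelihood method. With robust moderation added, those became 0.0518 and 0.0461. The default options were kept as the main fit after these p-values had been seen.

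Among the other 7, Ctsc was at 57.0 to 61.6 CPM in aged KO and 54.0 to 109 CPM in aged WT hearts. WT_Aged_5 was below all 4 KO hearts and the other aged WT hearts were above them, and the log2 difference of -0.41 ± 0.14 (SE) was not called (adjusted p 0.198). Without WT_Aged_5 it was -0.55 ± 0.11 (SE; adjusted p 0.0159), and without WT_Aged_1, the highest heart, it was -0.22 ± 0.10 (adjusted p 0.502). Ctsz had a log2 difference of -0.17 ± 0.14 (SE; adjusted p 0.717), which was 0.04 ± 0.09 without WT_Aged_1, and that of Ctsh went from -0.19 to -0.10 without the same heart, called in neither fit. Ctsa, Ctsb and Ctsd had differences of 0.00 ± 0.07, -0.02 ± 0.07 and -0.09 ± 0.07 (SE), with intervals of 2 SE from -0.13 to 0.14, -0.16 to 0.12 and -0.23 to 0.05. Those intervals hold no difference as large as that measured for Ctsl.

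Whether the change with age differed between genotypes was tested directly, as the change in KO minus the change in WT hearts. None of the 10 cathepsins was called by edgeR in that test, against 0.576% of all genes, and 4 of the 10 had an unadjusted p under 0.05, against 12.4% of all genes. DESeq2 called 2, Ctss and Ctsl. Of the 10 values 9 were negative. The value for Ctss was -1.20 ± 0.30 on the log2 scale (SE; adjusted p 0.0769), for Ctsl -0.50 ± 0.13 (adjusted p 0.085), for Ctso -0.51 ± 0.17 (adjusted p 0.195) and for Ctsc -0.54 ± 0.19 (adjusted p 0.241). Without WT_Aged_1, whose Ctss was the highest, the Ctss value was smaller at -0.87 ± 0.18 (SE) and passed the test (adjusted p 0.0249), while Ctsc went to -0.36, Ctsh from -0.22 to -0.14 and Ctsz from -0.31 to -0.11, none of them called. Without WT_Aged_12 both Ctss (-1.35, adjusted p 0.0146) and Ctso (-0.62, adjusted p 0.0406) passed, and without WT_Aged_5 Ctsc did (-0.69, adjusted p 0.0415). A call in 1 genotype and none in the other is not, in the main edgeR fit, a shown difference between them for any cathepsin. With no filter on low counts, edgeR on all hearts called Ctss in this test (-1.19, adjusted p 0.0437).

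Macrophages are rich in lysosomes, and their markers moved in the same hearts. In bulk hearts, fewer cells of a type and less RNA per cell cannot be told apart. The summed CPM of 18 macrophage markers, none of them a cathepsin and none at 0 in any group, ranged from 325 to 457 in young WT, 373 to 463 in young KO, 911 to 1362 in aged WT and 681 to 776 in aged KO hearts. Of the 18, 16 were higher with age in WT hearts (11.9% of all genes) and 12 in KO hearts (5.03% of all genes). In aged hearts 1 of the 18 (Mrc1, the mannose receptor) was lower in KO than in WT (log2 difference -0.52 ± 0.12, adjusted p 0.0309), against 0.942% of all genes. The part of macrophages in the cathepsin results was not tested.

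Across the 16 hearts, which share the 4 groups, the Pearson r of log2 CPM with the log2 macrophage sum was 0.97 for Ctss, 0.91 for Ctsl, 0.80 for Ctso and 0.88 for Ctsd. After each group's mean was taken away, r was 0.86 for Ctss, 0.51 for Ctsl, 0.35 for Ctso and 0.02 for Ctsd. For the other members it was 0.74 for Ctsz, 0.63 for Ctsa, 0.59 for Ctsh, 0.54 for Ctsk, 0.44 for Ctsb and 0.43 for Ctsc. Values above that of Ctsl were thus also found in members not called between aged genotypes. Without WT_Aged_1, over 15 hearts, those values of r were 0.70 for Ctss, 0.19 for Ctsl, 0.36 for Ctso and -0.03 for Ctsd. For the other members they were 0.52 for Ctsa, 0.40 for Ctsz, 0.33 for Ctsk, 0.31 for Ctsh, 0.08 for Ctsb and -0.28 for Ctsc. Per 100 CPM of macrophage markers, Ctss stood at 3.84 ± 0.12 CPM in young WT, 4.58 ± 0.45 in young KO, 5.99 ± 1.31 in aged WT and 4.52 ± 0.53 in aged KO hearts (SD, n = 4). On that ratio the aged WT hearts ran from 4.76 to 7.77 and the aged KO hearts from 4.15 to 5.31, so the groups overlapped. For Ctsl the ratio was 31.9 ± 3.31 in aged WT and 33.8 ± 4.27 in aged KO hearts, and for Ctso 3.82 ± 0.96 and 3.67 ± 0.20 (SD, n = 4), against 48.8 ± 3.44 and 6.02 ± 0.56 in young WT hearts.

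**Figure D4:**
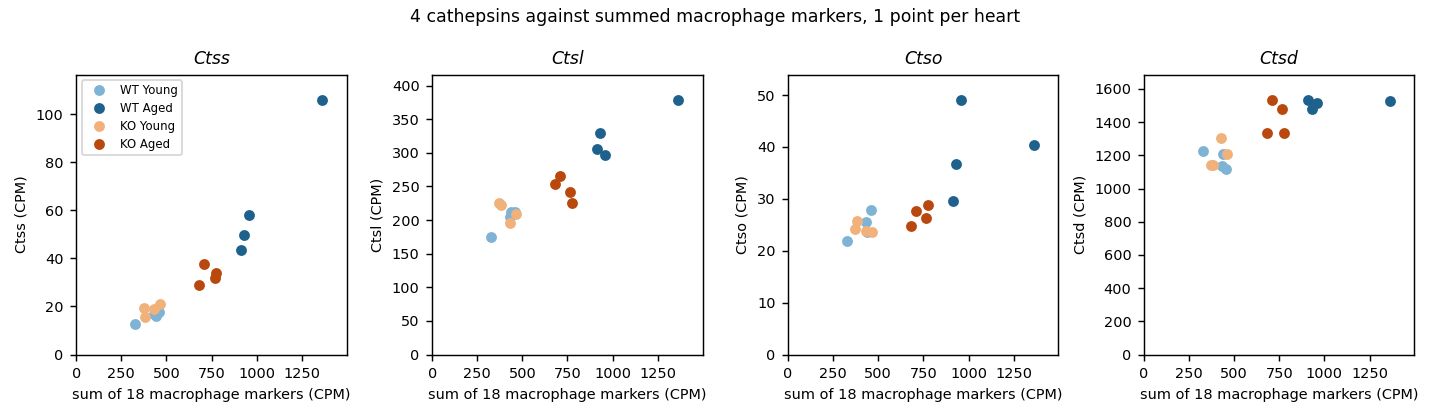
CPM of Ctss, Ctsl, Ctso and Ctsd against the summed CPM of 18 macrophage markers, 1 point per heart, both axes from 0. Ctss climbs along the marker sum from 12.7 CPM at the lowest sum, 325, to 106 CPM at the highest, 1362. Ctsd is also higher in the aged hearts, by a smaller fold, and lies between 1116 and 1533 CPM.

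Markers of other cells also differed. The summed CPM of 5 neutrophil markers was 21.0 to 33.8 in aged WT and 4.28 to 14.9 in aged KO hearts. It was at most 3.95 in young hearts, and the defining marker Ly6g was at 0 in every group except aged WT. All 3 neutrophil markers tested were called lower in aged KO than in aged WT hearts, against 0.942% of all genes. They were S100a8, S100a9 and Csf3r (adjusted p 0.0458, 0.00404 and 0.0159). The 7 lymphocyte markers summed to 4.08 to 10.5 CPM in aged WT and 2.13 to 4.39 CPM in aged KO hearts. Of the 2 tested, Cd8a was called lower in aged KO than in aged WT hearts (log2 difference -2.43, adjusted p 0.0164). Cd4 was not (adjusted p 0.982). Osteoclast markers, which would accompany Ctsk in bone, summed to at most 2.76 CPM in any heart. All 3 red cell markers were higher with age in WT hearts, with a sum of 381 to 528 CPM in young and 764 to 1641 CPM in aged animals, and none was called in KO ageing or between aged genotypes. Of 5 smooth muscle and pericyte markers, 4 were lower with age in WT hearts. Among 8 fibroblast markers, 1 was higher (Postn) and 2 were lower (Col1a1 and Col1a2) with age in WT hearts. These counts in WT ageing stand beside 11.9% of all genes called higher and 21.9% called in either direction. Atrial markers varied within groups and between the aged genotypes. Myl7, the atrial myosin light chain, ran from 0 to 0.243 CPM in aged WT and from 0.323 to 39.4 CPM in aged KO hearts, without overlap (adjusted p 0.0917). The log2 differences of aged KO from aged WT hearts were 3.79 for Myl4, 6.55 for Myl7, 6.77 for Sln and 0.05 for Nppa. None of them was called. The part of these cells in the cathepsin results was not tested.

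The genes whose levels ran most closely with each cathepsin over the 16 hearts differed in part between members. Ctss was followed most closely by Nckap1l, Adgre1 and Fcer1g (r of 0.99, 0.99 and 0.98), which are expressed in blood-derived and macrophage cells. Ctsl was followed by Ptprc, the pan-leukocyte antigen CD45, by Ifit2 and by Cd53 (r of 0.98, 0.97 and 0.96). Ctso was followed by Parp9, Bst2 and Rtp4 (r of 0.95, 0.94 and 0.93). Known interferon-inducible genes include Bst2, Rtp4 and Ifit2, and the other genes named here were not sorted in this way. After group means were taken away these 9 values of r lay between 0.80 and 0.95. Ctsb was followed by Lamp1, the lysosomal membrane glycoprotein, with r of 0.94, and 0.89 after group means were taken away. Npr3 and Nars came next for Ctsb (r of 0.92 and 0.91). Matches to immune genes were not particular to Ctss, Ctsl and Ctso. Ctsh was followed by C3ar1, Adgre1 and Trf (r of 0.94, 0.94 and 0.93), and Ctsd by Fah, Oas3 and Tfec (r of 0.94, 0.94 and 0.93). All of these are descriptions over hearts that share 4 groups. The genes were chosen by their r over these same hearts, so the values after group means were taken away are no separate check. No heart was left out for them.

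Other genes of the lysosome were read from lists of related function. All 6 other lysosomal proteases were higher in aged than in young WT hearts, with a median log2 change of 0.45, against 11.9% of all genes. In KO hearts 3 of the 6 were higher with age, with a median of 0.29, against 5.03% of all genes. Lgmn, the asparaginyl endopeptidase that processes cathepsin precursors, rose by 0.34 ± 0.08 on the log2 scale in WT hearts (SE; adjusted p 0.00426). Scpep1, a serine carboxypeptidase, rose in both genotypes, by 0.47 ± 0.09 in WT (adjusted p 0.000597) and 0.39 ± 0.09 in KO hearts (adjusted p 0.00749). Napsa, an aspartic protease related to Ctsd, was scarce, with 0.186 ± 0.037 CPM in young and 1.65 ± 0.49 CPM in aged WT animals (SD, n = 4; adjusted p 0.000265). None of the 6 was called between aged genotypes, where 1.11% of all genes were called.

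Of 31 tested lysosomal glycosidases and lipid hydrolases, 15 were higher and 2 lower with age in WT hearts, with a median log2 change of 0.29, and 2 higher and 1 lower in KO hearts, with a median of 0.15. These counts, and those in the other 3 lysosomal lists, stand beside 11.9% of all genes called higher with age in WT and 5.03% in KO hearts. Of 12 membrane proteins 3 rose with age in WT hearts (Lamp1, Cd63 and Npc2), of 16 subunits of the vacuolar ATPase, the lysosomal proton pump, 1 rose (Atp6v1c1), and of 11 sorting genes 2 rose (M6pr and Grn). Their median log2 changes were 0.14, 0.14 and 0.05. In KO hearts only Grn, the progranulin gene, rose among the genes of these lists, by 0.36 ± 0.07 (SE; adjusted p 0.00265). None of these 3 lists, nor the hydrolases, had a called member between aged genotypes. With 1.11% of all genes called there, few or no calls would fall in lists of these sizes.

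Of 5 regulators of lysosomal genes, Tfeb, a transcription factor that activates them, fell with age in WT hearts, from 30.4 ± 1.81 to 22.7 ± 1.03 CPM (SD, n = 4; log2 change -0.42 ± 0.08, adjusted p 0.000705). In aged KO hearts Tfeb stood at 29.2 ± 1.16 CPM, higher than in aged WT hearts (log2 difference 0.36 ± 0.08, adjusted p 0.0271), with no overlap. Zkscan3, a repressor of the same genes, also fell with age in WT hearts (log2 change -0.28 ± 0.09, adjusted p 0.0286). Tfec, a relative of Tfeb known from macrophages, rose in WT hearts from 0.145 ± 0.044 to 1.09 ± 0.30 CPM (SD, n = 4; adjusted p 5.63e-05).

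Class II presentation, where Ctss acts on the invariant chain Cd74, was read from 8 genes. All 8 genes were higher with age in WT hearts, with a median log2 change of 1.66, against 11.9% of all genes called higher. Of the 8, 1 (Ifi30) was higher with age in KO hearts, against 5.03% of all genes. In aged hearts 5 of the 8 were lower in KO than in WT, with a median of -1.18, against 0.942% of all genes. H2-Aa, a class II alpha chain, stood at 188 CPM in aged WT and 76.8 CPM in aged KO hearts (log2 difference -1.29 ± 0.28, adjusted p 0.0285), and the hearts overlapped. H2-Aa and H2-DMb1 were called in the test of the difference in ageing (adjusted p 0.049 and 0.0466), as no cathepsin was.

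Of 6 tested cathepsin inhibitors, 2 rose with age in WT hearts, against 11.9% of all genes called higher. Cst6, a cystatin, went from 3.30 ± 0.37 to 5.73 ± 1.24 CPM (SD, n = 4; adjusted p 0.00429). Serpina3g, a serpin known to inhibit cysteine cathepsins, went from 0.370 ± 0.290 to 11.3 ± 6.45 CPM (SD, n = 4; adjusted p 4.39e-06) and was at 2.61 ± 0.91 CPM in aged KO hearts, lower than in aged WT (adjusted p 0.00885). It is part of a cluster of similar serpin genes, and how reads were assigned among them was not tested.

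**Figure D5:**
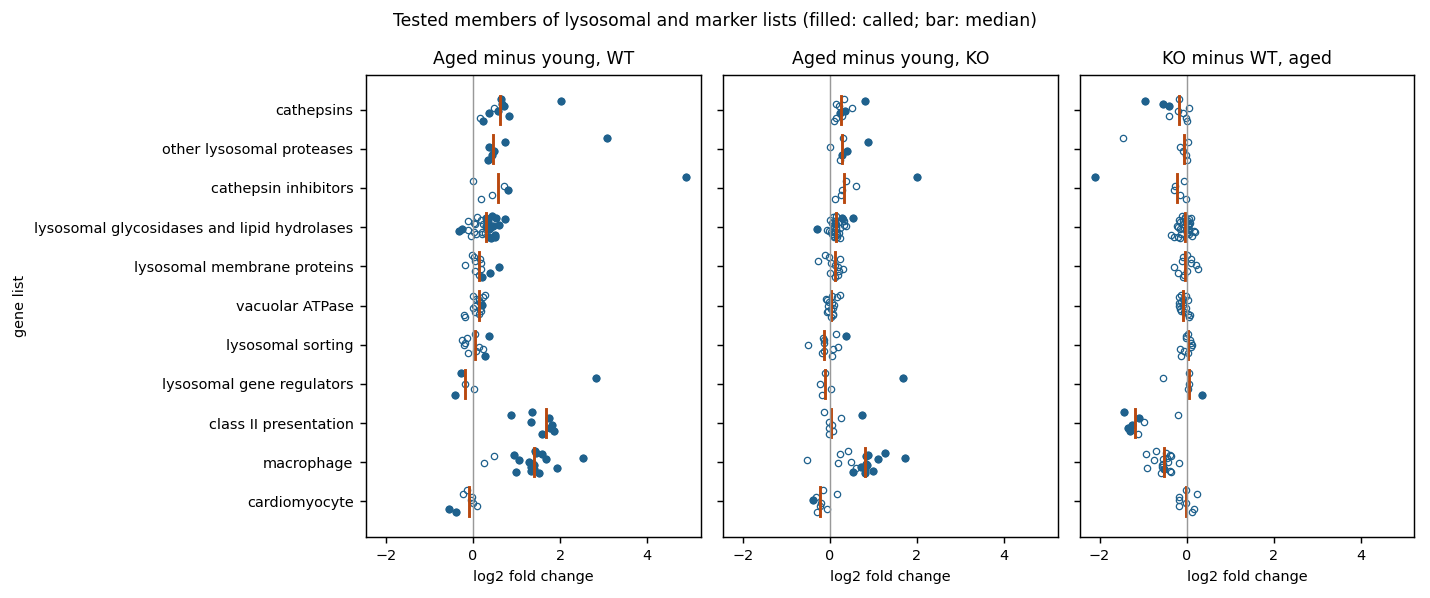
Log2 fold changes of the tested genes of 11 lists (rows) in WT ageing, KO ageing and aged KO minus aged WT, 1 circle per gene, filled where called, with the list median as a bar. In the aged genotype panel the class II list has a median of -1.18 and the cathepsins -0.18.

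Of 13 further cathepsin genes looked for, 5 were listed and 8 were not analysed here. Ctsf, a widely expressed cysteine cathepsin, was the only one with enough counts to be tested and was not called in any comparison (WT ageing log2 change -0.01 ± 0.09, adjusted p 0.927). Ctsw, known from cytotoxic lymphocytes, had 5, 26, 17 and 13 counts in aged WT hearts, against 0 to 6 in every other heart. Ctse, Ctsg and Ctsj had at most 4 counts in any heart.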

How the data were processed

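Bulk RNA was sequenced from 16 mouse hearts, 4 in each of 4 groups. The deposited table of expected counts per gene and the deposited FPKM table, which the authors normalized to depth and length, were the starting point. The submitters' processing notes name HISAT, Bowtie2 and build GRCm39 with no roles; versions and the counter are not given in the sources used here. Counts, of which 9.57% to 10.5% per library were not whole (tolerance 1e-09), were rounded. They were tested with edgeR 4.0.16 (quasi-likelihood F test, default options) in R 4.3.3 after filterByExpr and TMM scaling, in 1 fit of 4 groups with 12 residual degrees of freedom, adjusted over 13373 genes by Benjamini-Hochberg; a gene is called at an adjusted p under 0.05. SE was taken from the log2 change and the F value, and 2 SE intervals from it.

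The 12 sets of edgeR options that were run differed in robust moderation, the quasi-likelihood method, library sizes and dispersion estimation. The default was kept as the main fit after their p-values had been seen. Alternatives were DESeq2 1.42.0, RLE size factors, library totals, no filter, only the compared groups, limma 3.58.1 on log2(FPKM + 1) and log2(FPKM + 0.1), robust moderation and the newer quasi-likelihood method (both added after seeing the data), and each heart left out.

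The members and the gene lists were chosen with earlier results of these data known. Named genes are the cathepsins, Armh4, up to 4 genes of each list by smallest adjusted p, and the 3 genes with the highest correlation to each cathepsin. Genes outside that rule are named only where a count needed them. Animal numbers were not shared between groups, so hearts were not paired. The fit was tested on simulated data.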

Additional observations from a re-analysis of the deposited data

Results flagged for a closer look

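Within the groups of 4 hearts, 40 combinations of cathepsin and group were screened for a heart far from the other 3, and 2 were found; chance gives about 1 in 20. Ctsz in WT_Aged_1 stood at 59.6 CPM, with the other 3 aged WT hearts at 33.5 to 37.5 CPM. Ctsh in WT_Young_42 stood at 42.7 CPM, with the other 3 young WT hearts at 38.6 to 39.3 CPM. WT_Aged_1 also had the highest macrophage marker sum, 1362 CPM.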

How the results depend on the processing

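No paired analysis was possible because the groups share no animal number. The 8 cathepsins called with age in WT hearts were 7 to 9 under every alternative, all higher. Over all genes, 2930 were called there (1588 higher, 1342 lower); with library totals 2732 were called (1961 higher, 771 lower), with limma on log2(FPKM + 1) 2635 (1905 and 730) and with only the compared groups 2032 (1314 and 718). In KO ageing the split of all genes was 673 higher and 353 lower, and 917 and 190 with library totals. Cathepsins called lower in aged KO than in aged WT hearts fell from 3 to 0 with only the compared groups and with limma on either FPKM scale, and the interaction went from 0 called to 2 with DESeq2 and 1 (Ctss) without a filter; with library totals Ctsl was lost in aged hearts (adjusted p 0.0727, edgeR). The cause was not tested.

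All genes called, 149 in aged hearts, were 261 with DESeq2, 24 with only the compared groups and 73 with limma on log2(FPKM + 0.1). The 43 in young hearts were 149 with DESeq2, 28 with library totals, 113 with only the compared groups, 15 with limma on log2(FPKM + 1) and 27 on log2(FPKM + 0.1). The 77 of the interaction were 217 with DESeq2 and 51 with limma on log2(FPKM + 0.1). On the log2(FPKM + 1) and log2(FPKM + 0.1) scales the values that changed sign were Ctsa in aged hearts (-0.0056 on both) and Ctsb in young hearts (0.032 on both), none of them called.

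With 1 heart left out at a time, called cathepsins ranged from 0 to 3 in aged hearts, 0 to 3 in KO ageing, 0 to 2 for the interaction and 7 to 8 in WT ageing. All genes called ranged from 50 to 258 in aged hearts, 3 to 21 in young hearts, 643 to 874 in KO ageing, 2111 to 2951 in WT ageing and 39 to 179 for the interaction. Uncalled values that changed sign ranged from -0.018 to 0.025 for Ctsa, -0.054 to 0.012 for Ctsb, -0.15 to 0.24 for Ctsk and -0.26 to 0.037 for Ctsz in aged hearts. In young hearts they ranged from -0.054 to 0.035 for Ctsb, -0.0098 to 0.068 for Ctsd, -0.027 to 0.076 for Ctsh, -0.12 to 0.16 for Ctsk and -0.078 to 0.042 for Ctso, and for the interaction from -0.065 to 0.030 for Ctsb and -0.17 to 0.21 for Ctsk. With 4 hearts a group, a difference as small as those of Ctsa and Ctsb lies within about 2 SE and was not resolved.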
